A study of Mus musculus with 6 samples.

Results

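The GATA factors and their Friend of GATA partners were read in sorted mouse mesoderm, as 8 of the 18193 genes with a symbol of their own on the array: Gata1, Gata2, Gata3, Gata4, Gata5, Gata6, Zfpm1 and Zfpm2. Their probe sets were found through the probe annotation, by taking every probe set whose single gene symbol was 1 of these names. This gave 15 probe sets of the 45037 non-control probe sets of the array: 4 for the blood GATA genes (Gata1, Gata2 and Gata3), 7 for the cardiac and endodermal GATA genes (Gata4, Gata5 and Gata6) and 4 for Zfpm1 and Zfpm2.

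RNA came from embryoid bodies, aggregates in which embryonic stem (ES) cells form early germ layers, and was hybridised to 6 Affymetrix arrays in 3 groups of 2. On day 4, Flk1+ mesodermal cells were sorted; Flk1 is the receptor encoded by Kdr. The SclKO group was Flk1+ cells of an Scl knockout ES line derived from J1 (129S4/SvJae), collected on Flk1 alone according to the sort protocol. The titles of these samples also carry Scl-, and the labels do not say whether this names a gate or the genotype. The WT Scl+ and WT Scl- groups were Flk1+ cells of an R1-derived reporter line, (129/Sv x 129/Sv-CP)F1, in which a human CD4 knock-in at Scl reports its expression; they were positive or negative for human CD4. The labels do not give the number of modified Scl alleles in the reporter line or the number of clones behind either line. Knockout, ES line and sort gate cannot be told apart in the comparisons with SclKO. The labels do not say that replicates came from separate cultures, so the tests measure the spread between these arrays, which may be technical.

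GATA factors are zinc finger transcription factors that bind DNA sites with the core letters GATA. Gata2 acts in early blood progenitors and Gata1 in red cells and megakaryocytes, where it works in complexes with Scl (gene Tal1), Lmo2 and Ldb1. Gata3 is best known for its role in T cells, while Gata4, Gata5 and Gata6 act in heart mesoderm and endoderm. Friend of GATA proteins (Zfpm1, also called FOG1, and Zfpm2, also called FOG2) bind a GATA zinc finger and recruit chromatin regulators such as the NuRD complex.

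Levels are natural logs of the deposited values, and differences are in log units. The base to which the authors' values were raised is not stated, so 1 log unit is 2-fold if the natural log is a log2 value of the array software, and 2.72-fold if the deposited values are linear. On each array between 1040 and 1153 deposited values exceeded 65535, the ceiling of a 16-bit scanner, and the highest was 2822995, above what a raw scanner signal can hold. Folds are given under both readings in that order, though unscaled linear signals could not give such values. The limit for dim values is the 40th percentile of each array, between 4.54 and 4.59. A probe set was tested if it exceeded the limit on at least 2 arrays, which 10 of the 15 did and 28363 did in all. A mean per group was fitted with limma to all 6 arrays, with p-values adjusted over these 28363 probe sets.

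WT Scl+ replicate 2 stood apart from the other arrays: it lay at 78.4 on the first principal component, which held 53.2% of the variance, and the others lay between -38.1 and 11.5. Tal1, the targeted gene, was at 5.71 and 6.14 in SclKO, 8.65 and 8.78 in WT Scl+, and 6.52 and 7.97 in WT Scl-. WT Scl- replicate 2 thus lay nearer to WT Scl+ than WT Scl- replicate 1 did. Kdr was at 11.16 and 10.83 in SclKO, 11.35 and 10.86 in WT Scl+, and 11.14 and 11.23 in WT Scl-. No member passed at an adjusted p under 0.05 in any of the 3 comparisons. Over all probe sets, 0 passed between WT Scl+ and WT Scl-, where 1260 were higher and 1400 lower at an unadjusted limma p under 0.05. The same 3 passed in both comparisons with SclKO, and they were chosen here after their values were seen: Cdkn1c (3.9 log units against WT Scl+) and Gm6958 (-4.12) with 1 probe set each, and a probe set without a gene symbol (-4.77).

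Gata2 and Gata1 were highest in WT Scl+, on every array above every array of the other groups. Gata4, with both of its probe sets, was lowest in WT Scl+, again without overlap. Gata6 showed the pattern of Gata4 with 1 of its 2 tested probe sets. Gata3 was highest in SclKO and similar in the WT groups, and the intervals of all Zfpm1 differences included 0. Gata5, Zfpm2 and another Gata6 probe set stayed below the limit for dim values, except for 1 value of Gata5.

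**Figure D1:**
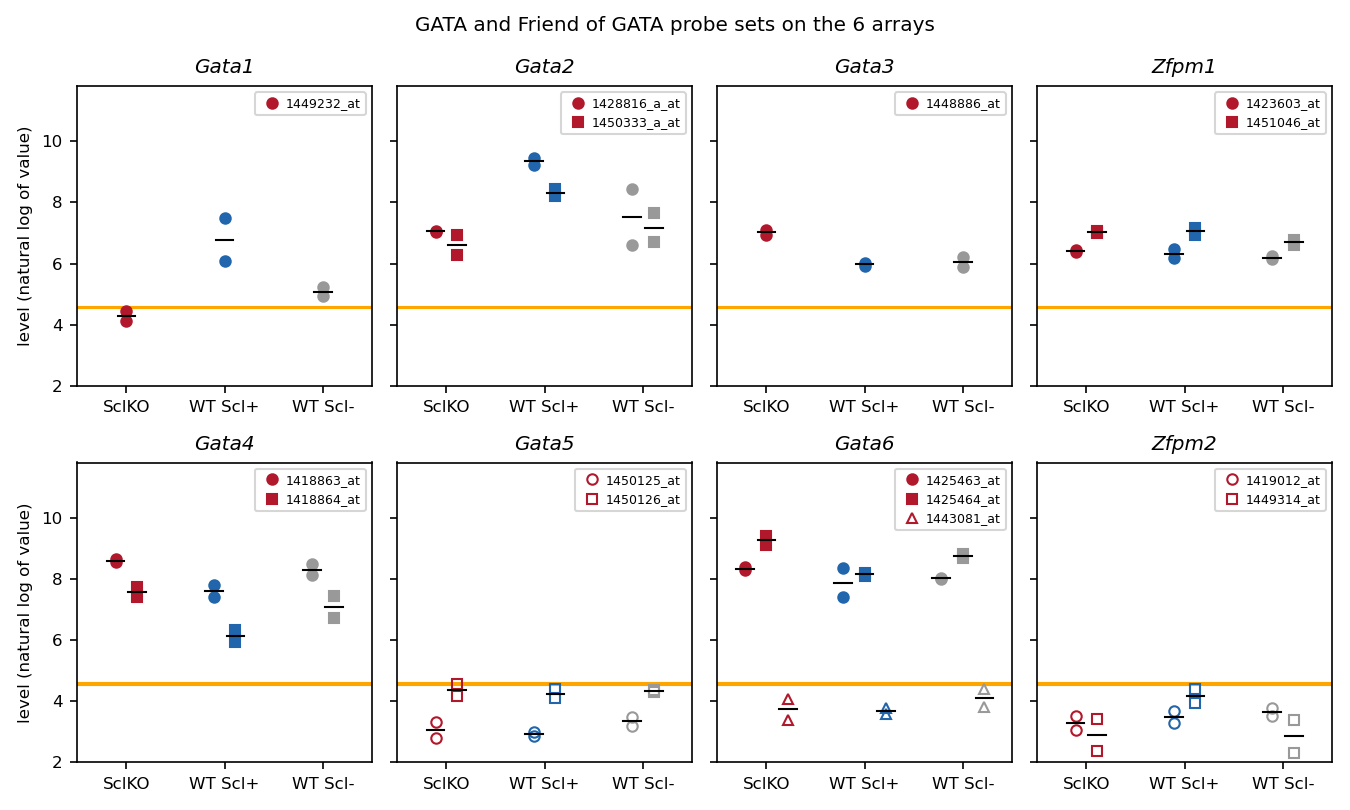
Level (natural log of the deposited value) of each of the 15 probe sets on the 6 arrays, with SclKO in red, WT Scl+ in blue and WT Scl- in grey. Each point is an array, black lines are group means, open symbols are probe sets that were not tested, and the orange band holds the arrays' limits for dim values. Gata1 and Gata2 are highest in WT Scl+, Gata4 is lowest there, and Gata3 is highest in SclKO.

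Gata2, a factor of early blood progenitors, was read by 2 probe sets. Probe set 1428816_a_at was at 7.06 and 7.04 in SclKO, 9.22 and 9.46 in WT Scl+, and 6.59 and 8.42 in WT Scl-. Probe set 1450333_a_at was at 6.28 and 6.92 in SclKO, 8.2 and 8.42 in WT Scl+, and 6.71 and 7.63 in WT Scl-. In both, WT Scl+ lay above all other arrays, WT Scl- replicate 2 came next, and WT Scl- replicate 1 lay within or below the range of SclKO. In bulk RNA, fewer cells that express Gata2 and less Gata2 RNA per cell cannot be told apart.

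WT Scl+ exceeded WT Scl- by 1.83 log units at 1428816_a_at (SE 0.55, limma adjusted p = 0.46), which is 3.56-fold or 6.24-fold. The difference at 1450333_a_at was 1.14 log units (SE 0.36, adjusted p = 0.472). Without WT Scl- replicate 1 these differences were 0.92 and 0.68 log units, and without WT Scl- replicate 2 they were 2.75 and 1.6. At 1428816_a_at the level in SclKO was 4.89-fold or 9.87-fold below WT Scl+ (difference -2.29 log units, SE 0.55, adjusted p = 0.208) and at 1450333_a_at 3.28-fold or 5.54-fold below (-1.71, SE 0.36, adjusted p = 0.177). The first of these passed (adjusted p = 0.0496) where either WT Scl- array was left out, which changes only the pooled spread. Against WT Scl-, SclKO overlapped at both probe sets, with differences of -0.46 (95% interval -1.79 to 0.87) and -0.57 log units (-1.44 to 0.29). Without WT Scl- replicate 2 the first of these had the opposite sign (0.46).

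Gata1, the main factor of red cell and megakaryocyte genes, was read by probe set 1449232_at on the X chromosome gene. Its level was 4.11 and 4.46 in SclKO, 7.48 and 6.08 in WT Scl+, and 4.93 and 5.22 in WT Scl-. The 3 groups did not overlap. Both SclKO arrays were under the limit for dim values, and every WT array was above it. The spread within WT Scl+ was wide, at 6.78 ± 0.98 (SD, n = 2), with replicate 1 the higher array.

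WT Scl+ exceeded WT Scl- in Gata1 by 1.7 log units (SE 0.44, adjusted p = 0.439), or 3.26-fold or 5.5-fold. Leaving out WT Scl+ replicate 1 gave 1.01, and leaving out replicate 2 gave 2.4. The measured difference of SclKO from WT Scl+ was -2.49 log units (SE 0.44, adjusted p = 0.148). With the SclKO values raised to the limit, Gata1 was at least 4.64-fold or 9.16-fold lower. The difference from WT Scl+ was -1.8 log units without WT Scl+ replicate 1, which leaves in WT Scl+ only the array that stood apart. Against WT Scl-, the Gata1 difference of SclKO was -0.79 log units (95% interval -1.87 to 0.29), or -0.51 at the limit.

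Gata3 did not follow Gata1 and Gata2. Its probe set 1448886_at was at 7.11 and 6.93 in SclKO, 5.92 and 6.03 in WT Scl+, and 6.22 and 5.87 in WT Scl-. The SclKO arrays lay above all WT arrays, and the WT groups overlapped. SclKO exceeded WT Scl+ by 1.05 log units (SE 0.19, adjusted p = 0.148), or 2.07-fold or 2.85-fold. It exceeded WT Scl- by 0.97 log units (SE 0.19, adjusted p = 0.782), or 1.96-fold or 2.64-fold. Both contrasts rest on the same SclKO arrays, which differ from the WT arrays in ES line as well. WT Scl+ and WT Scl- differed by -0.08 log units in Gata3 (95% interval -0.53 to 0.38), and without WT Scl- replicate 1 the sign was reversed (0.1).

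The start-site windows of these 3 genes are shown because the blood GATA members split: Gata1 and Gata2 were high in WT Scl+, and Gata3 was not. They come from RefSeq on GRCm38.p6, run from 250 bases before to 50 after the start, and were found for 5 of the 8 members, with 2 starts for Gata2. Capitals mark 2 motifs sought on both strands: E-boxes (CANNTG), the kind of site bound by Scl and its partners, and GATA sites (the letters AGATAA or the letters AGATAG or the letters TGATAA or the letters TGATAG). No matches of the motifs overlapped.
Gata1, chrX:7967861-7968160, minus strand: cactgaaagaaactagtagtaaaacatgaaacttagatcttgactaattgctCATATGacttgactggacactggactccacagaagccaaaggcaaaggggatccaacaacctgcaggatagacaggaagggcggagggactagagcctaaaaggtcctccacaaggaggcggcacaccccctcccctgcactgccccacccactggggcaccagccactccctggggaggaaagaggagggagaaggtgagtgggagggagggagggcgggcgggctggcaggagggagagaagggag
Gata2, first start, chr6:88193641-88193940, plus strand: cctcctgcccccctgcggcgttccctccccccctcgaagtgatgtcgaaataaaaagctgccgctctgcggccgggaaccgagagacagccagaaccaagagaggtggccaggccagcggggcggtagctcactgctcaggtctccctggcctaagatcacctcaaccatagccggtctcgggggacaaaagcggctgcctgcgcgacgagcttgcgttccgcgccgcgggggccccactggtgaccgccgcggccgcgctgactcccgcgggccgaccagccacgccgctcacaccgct
Gata2, second start, chr6:88198414-88198713, plus strand: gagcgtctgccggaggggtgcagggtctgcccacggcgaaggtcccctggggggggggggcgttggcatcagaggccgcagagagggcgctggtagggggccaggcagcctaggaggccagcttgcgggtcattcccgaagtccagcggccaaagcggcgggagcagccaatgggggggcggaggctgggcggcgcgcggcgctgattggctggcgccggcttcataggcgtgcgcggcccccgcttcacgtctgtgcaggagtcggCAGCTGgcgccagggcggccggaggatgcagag
Gata3, chr2:9878551-9878850, minus strand: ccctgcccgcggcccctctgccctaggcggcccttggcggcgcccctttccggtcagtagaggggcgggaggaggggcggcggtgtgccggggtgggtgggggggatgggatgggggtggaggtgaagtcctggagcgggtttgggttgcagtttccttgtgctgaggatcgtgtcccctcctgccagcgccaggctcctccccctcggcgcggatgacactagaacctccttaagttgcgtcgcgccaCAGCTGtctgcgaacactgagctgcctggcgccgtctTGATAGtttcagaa

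Each of the Gata1, Gata3 and second Gata2 windows held 1 E-box, and the first Gata2 window held 0. Of the windows not shown, that of Gata5 held 1 E-box and that of Zfpm1 held 0. An E-box was present in 72.3% of 32851 promoter windows of the same length. The 1 GATA site lay in the Gata3 window (TGATAG, starting 36 bases after the start site), and 29.8% of all windows held a GATA site. A match is a description of the letters and not of binding, and distal elements were not examined.

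Gata4, a factor of heart mesoderm and endoderm, was lowest in WT Scl+ with both probe sets. Probe set 1418863_at was at 8.63 and 8.56 in SclKO, 7.8 and 7.41 in WT Scl+, and 8.48 and 8.12 in WT Scl-. Probe set 1418864_at was at 7.72 and 7.41 in SclKO, 6.31 and 5.95 in WT Scl+, and 7.42 and 6.7 in WT Scl-. WT Scl+ lay below all other arrays in both, and WT Scl- replicate 2, the array with more Tal1, lay below WT Scl- replicate 1.

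WT Scl+ differed from WT Scl- by -0.69 log units at 1418863_at (SE 0.21, adjusted p = 0.465), or 1.62-fold or 2-fold lower, and by -0.93 at 1418864_at (SE 0.29, adjusted p = 0.465). Without WT Scl- replicate 1 these were -0.51 and -0.57 log units, and without WT Scl+ replicate 2 they were -0.5 and -0.75. SclKO exceeded WT Scl+ by 0.99 log units (SE 0.21, adjusted p = 0.182) and 1.43 log units (SE 0.29, adjusted p = 0.172), which for the second is 2.7-fold or 4.2-fold. SclKO exceeded WT Scl- by 0.3 (95% interval -0.22 to 0.81) and 0.5 log units (-0.2 to 1.2). The groups overlapped at the second probe set in this last comparison and were 0.08 log units apart at the first.

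Gata6, a factor of early endoderm and heart mesoderm, had 2 tested probe sets that differed on 1 array. Probe set 1425464_at was at 9.12 and 9.41 in SclKO, 8.19 and 8.1 in WT Scl+, and 8.68 and 8.81 in WT Scl-. Probe set 1425463_at was at 8.27 and 8.39 in SclKO, 7.4 and 8.34 in WT Scl+, and 8 and 8.04 in WT Scl-. The first separated all 3 groups, with WT Scl+ lowest and SclKO highest. The second placed WT Scl+ replicate 2, the array that stood apart, between the SclKO arrays. No source used here states which part of the Gata6 transcript each probe set reads.

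At 1425464_at, WT Scl+ differed from WT Scl- by -0.6 log units (SE 0.17, adjusted p = 0.449), or 1.51-fold or 1.82-fold lower. SclKO exceeded WT Scl+ by 1.12 log units (SE 0.17, adjusted p = 0.136), or 2.17-fold or 3.06-fold, and exceeded WT Scl- by 0.52 (SE 0.17, adjusted p = 0.895). The difference from WT Scl+ was 1.16 log units without WT Scl+ replicate 1, which leaves in that group only the array that stood apart. At 1425463_at, WT Scl+ differed from WT Scl- by -0.15 log units (95% interval -0.9 to 0.6), and by 0.33 without WT Scl+ replicate 1. SclKO there exceeded WT Scl+ by 0.46 log units (-0.29 to 1.21) and WT Scl- by 0.32 (-0.43 to 1.07). Without WT Scl+ replicate 1 the 0.46 became -0.01. The third probe set, 1443081_at, was below the limit on all 6 arrays, between 3.4 and 4.39.

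Gata5, which acts in heart and gut endoderm, gave no level above the limit in most arrays. Probe set 1450125_at lay between 2.81 and 3.47, and 1450126_at between 4.1 and 4.57 with 1 array, SclKO replicate 1, above its limit. The cardiac and endodermal comparison therefore rests on Gata4 and Gata6.

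Zfpm1, the Friend of GATA protein that partners Gata1 in blood, was above the limit on all 6 arrays with both probe sets. Probe set 1451046_at was at 7.05 and 7 in SclKO, 7.15 and 6.95 in WT Scl+, and 6.78 and 6.6 in WT Scl-. Probe set 1423603_at was at 6.38 and 6.43 in SclKO, 6.18 and 6.46 in WT Scl+, and 6.13 and 6.26 in WT Scl-. The range over all arrays was only 0.54 log units for the first, with WT Scl- lowest and the other groups overlapping. At the second, SclKO lay above WT Scl- without overlap, and WT Scl+ overlapped with both other groups.

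SclKO differed from WT Scl+ in Zfpm1 by -0.02 log units (95% interval -0.43 to 0.38) at 1451046_at and by 0.09 (-0.33 to 0.5) at 1423603_at. WT Scl+ differed from WT Scl- by 0.35 (-0.05 to 0.75) and 0.13 log units (-0.29 to 0.54). SclKO differed from WT Scl- by 0.33 (-0.07 to 0.73) and 0.21 (-0.2 to 0.63). Zfpm2, the Friend of GATA protein of heart development, was below the limit on all 6 arrays with both probe sets, between 3.07 and 3.77 at 1419012_at and between 2.32 and 4.4 at 1449314_at.

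**Figure D2:**
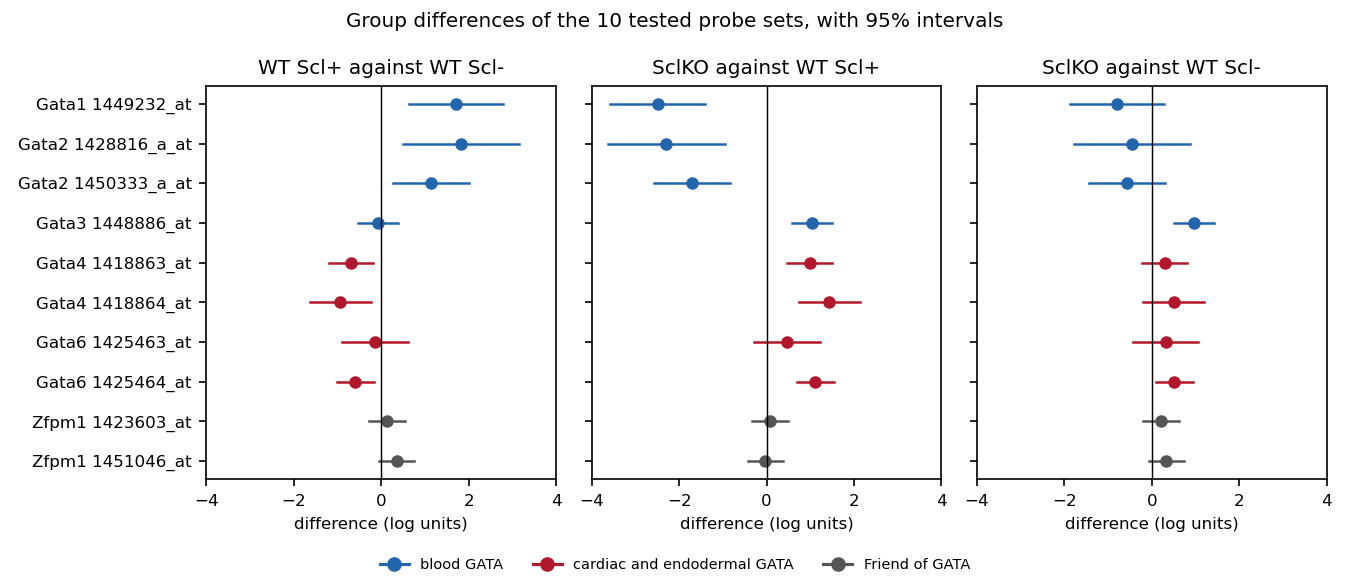
Difference between groups in log units for the 10 tested probe sets, 1 panel for each comparison; points are differences and bars 95% intervals from limma, not adjusted for the number of probe sets. Gata1 and Gata2 lie opposite to Gata4 and Gata6 in the first 2 panels, Gata3 lies with Gata4 and Gata6 in the comparisons with SclKO, and both Zfpm1 probe sets include 0 in every panel.

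Counted together, 6 of the 10 tested member probe sets had an unadjusted limma p under 0.05 between WT Scl+ and WT Scl-, 3 higher (Gata1 and both of Gata2) and 3 lower (both of Gata4 and 1 of Gata6). Over all probe sets tested, the shares were 4.44% higher and 4.94% lower. Arrays of WT Scl+ and WT Scl- were fully separated for 7 of the 10 (4 higher, 3 lower), against 37.7% of all probe sets (16.6% higher, 21.2% lower). Between SclKO and WT Scl+, 7 of 10 had an unadjusted p under 0.05, 4 higher (Gata3, both of Gata4 and 1 of Gata6) and 3 lower (Gata1 and both of Gata2), where 7.35% of all probe sets were higher and 5.68% lower. Separation was full for 7 of 10 (4 higher, 3 lower), against 42.6% of all (24.4% higher, 18.2% lower). Between SclKO and WT Scl-, 2 of 10 were higher at that p (Gata3 and 1 of Gata6) and 0 lower, against 2.7% and 2.77%. Here too 7 of 10 were fully separated, 6 higher and 1 lower, against 41.2% of all (21.7% higher, 19.5% lower). At an adjusted p under 0.05 the shares over all probe sets were 0%, 0.0106% and 0.0106%, and 0 of 10 members passed in each comparison. Without WT Scl+ replicate 2, the members at an unadjusted p under 0.05 numbered 4, 8 and 3 in the comparisons in this order. Without WT Scl- replicate 1 there were 3 between WT Scl+ and WT Scl- and 4 between SclKO and WT Scl-. The last count was 1 without WT Scl- replicate 2 or SclKO replicate 2. These counts hold several probe sets of the same gene, and the 3 comparisons share arrays, so they are not independent of each other.

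Blood GATA was set beside cardiac and endodermal GATA by averaging, on each array, the brightest tested probe set of each gene. The mean level of Gata1, Gata2 and Gata3 was 6.09 and 6.14 in SclKO, 7.54 and 7.19 in WT Scl+, and 5.92 and 6.5 in WT Scl-. The mean level of Gata4 and Gata6 was 8.87 and 8.98 in SclKO, 7.99 and 7.76 in WT Scl+, and 8.58 and 8.46 in WT Scl-. The arrays of WT Scl+ had the highest blood GATA and the lowest cardiac and endodermal GATA. SclKO had the highest cardiac and endodermal GATA, with blood GATA inside the range of WT Scl-.

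Relative to WT Scl-, the blood mean of WT Scl+ was 1.15 log units higher and the cardiac and endodermal mean 0.65 log units lower (-0.65), so the gap between the classes shifted by 1.8. SclKO against WT Scl+ shifted by -2.3 log units, and SclKO against WT Scl- by -0.5. Levels of different probe sets cannot be set against each other, so only the change in the gap between arrays is read. The blood mean joins unlike members. Without Gata3, a choice made after its values were seen, the shifts were 2.42, -3.44 and -1.03 log units. Without Gata1 they were 1.52, -1.67 and -0.15. No test was made on these means because the members were chosen with results of these arrays known.

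**Figure D3:**
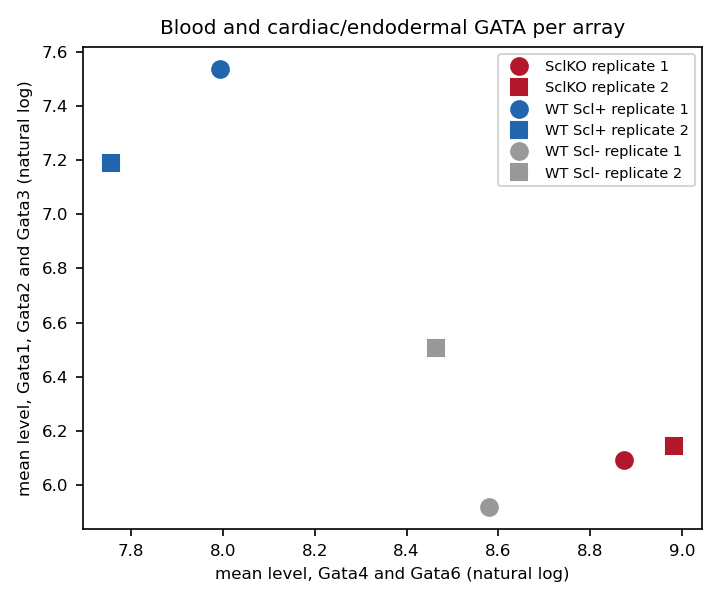
Mean level of Gata1, Gata2 and Gata3 (vertical, natural log) against that of Gata4 and Gata6 (horizontal, natural log) on each of the 6 arrays, coloured by group with the replicate shown by symbol. WT Scl+ arrays lie at the upper left, SclKO arrays at the lower right, and WT Scl- arrays at lower levels of blood GATA than WT Scl+.

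Markers of other cell types were read on the same arrays. The mean level of 6 endothelial markers was 4.67 and 5.64 in SclKO, 6.67 and 7.3 in WT Scl+, and 4.23 and 6.1 in WT Scl-, and the number above the limit was 1 of 6 on WT Scl- replicate 1 and 4 or 5 on each other array. For the blood markers, 5 of 6 had a probe set, and their mean was 4.65 and 4.95 in SclKO, 6.59 and 6.59 in WT Scl+, and 4.74 and 5.54 in WT Scl-. WT Scl- replicate 2, the WT Scl- array with more Gata2, was thus also the one with more endothelial and blood marker RNA. For the primitive streak and nascent mesoderm markers, 5 of 6 had a probe set, with means of 9.47 and 9.35 in SclKO, 8.07 and 7.24 in WT Scl+, and 9.38 and 8.93 in WT Scl-. WT Scl+ was lowest in these, as in Gata4. The 6 endoderm markers had means of 5.53 and 5.34 in SclKO, 5.74 and 5.64 in WT Scl+, and 5.15 and 5.25 in WT Scl-, and Afp was under the limit on 5 of 6 arrays. The 6 cardiac cell markers had means of 6.38 and 6.1 in SclKO, 6.2 and 5.68 in WT Scl+, and 6.53 and 6.1 in WT Scl-. The 4 markers of mesoderm of the sort gate (Kdr, Pdgfra, Hand1 and Foxf1) had means of 9.34 and 8.62 in SclKO, 8.4 and 7.45 in WT Scl+, and 9.48 and 8.69 in WT Scl-, again lowest in WT Scl+. The 6 pluripotent cell markers had means of 7.32 and 7.27 in SclKO, 7.44 and 6.36 in WT Scl+, and 7.17 and 6.74 in WT Scl-, with WT Scl+ replicate 2 lowest. The 6 neural and surface ectoderm markers had means between 6.41 and 6.8 on all arrays. The endoderm markers had their highest means in WT Scl+. The 5 tested cardiac markers all had a positive difference between SclKO and WT Scl+ (median 0.17 log units), 1 of them at an unadjusted limma p under 0.05. Over all genes, 7168 of 12922 were positive there. Between WT Scl+ and WT Scl-, 2 of these markers were positive and 3 negative (median -0.42), where 5963 of all genes were positive and 6959 negative. The part of the mix of cells in the GATA differences was not tested.

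The genes around the GATA factors were described by lists, 1 probe set a gene, and no list gene passed at an adjusted p under 0.05. All 14 partners in the blood complex had a positive difference between WT Scl+ and WT Scl- (median 1.46 log units), 9 of them at an unadjusted p under 0.05, against 5.19% of 12922 genes that were higher at that p and a median of -0.02 over all genes. The largest were the corepressor Cbfa2t3 (2.67 log units, SE 0.73) and the ETS factors Fli1 (2.61, SE 0.82) and Erg (2.57, SE 0.84). In SclKO against WT Scl+, 13 of 14 were negative (median -1.67), 9 at an unadjusted p under 0.05, where 6.24% of all genes were lower. By measured values Cbfa2t3 (-4.77, SE 0.73), Fli1 (-3.58, SE 0.82) and Lyl1, a close relative of Scl, came first. Lyl1 was under the limit for dim values on both SclKO arrays and was at least 8.26-fold or 21-fold lower (-3.05 log units with SclKO at the limit), which leaves its rank beside Erg (-3.09) unsettled. Cbfa2t3 was under the limit on SclKO replicate 1, and its difference was -4.43 with that value at the limit. Against WT Scl-, 4 of 14 were lower in SclKO at that p and 1, the E protein gene Tcf4 (0.49), was higher, where 2.07% of all genes were lower and 2.75% higher. The lower ones were Cbfa2t3 (-2.1, or -1.76 at the limit), Tal1 itself (-1.32), Lyl1 (at least 1.92-fold or 2.55-fold lower) and Gfi1b. Tal1 is the gene that the reporter sort and the knockout act on, so its direction was set by the design. Of the other 13 partners, 8 were higher between WT Scl+ and WT Scl-, and 8 lower between SclKO and WT Scl+. Between SclKO and WT Scl-, 3 were lower and 1 higher. Spi1 is in both counts of 8 and in both counts of 9 above. It exceeded the limit on 2 WT Scl+ arrays, 1 WT Scl- array and 0 SclKO arrays. Spi1 thus passed the filter only through WT Scl+, where it was high, so its direction is no support in either comparison. With dim values at the limit its differences were 0.59 and -0.8 log units.

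Of 20 listed erythroid and megakaryocyte targets of Gata1 and Gata2, 17 had a probe set and 13 were tested. Hbb-y, Hba-a1, Slc4a1 and Pf4 had 0 arrays above the limit and were not tested. At an unadjusted p under 0.05, 11 lay higher in WT Scl+ and 0 lower, against WT Scl- (median 1.26 log units), where 5.19% of all genes were higher. Hba-x was counted here and among the genes lower in SclKO than in WT Scl+. It passed the filter only through WT Scl+ (5.72 and 5.18), with 0 arrays above the limit in the other groups. Its direction in both comparisons was thus set by the filter. The embryonic globin Hbb-bh1 was at 8.85 and 8.04 in WT Scl+, against 5 and 6.55 in WT Scl-. Nfe2, a factor of globin and platelet genes, and the homeobox gene Hhex each differed by 1.83 (SE 0.47 and 0.52). In SclKO against WT Scl+, 11 of 13 were lower at that p (median -1.66), where 6.24% of all genes were lower. Among them were Hbb-bh1 (-3.54, SE 0.54), Hhex (-2.29, SE 0.52) and the repressor gene Gfi1b. Gfi1b was under the limit on both SclKO arrays and was at least 4.11-fold or 7.67-fold lower (-2.04 log units at the limit). Against WT Scl-, 1 of 13 was lower in SclKO at that p, where 2.07% of all genes were. This was Gfi1b, at least 1.39-fold or 1.61-fold lower (-0.48 log units at the limit), and the list's median was -0.32.

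Of 11 cofactors of cardiac GATA, 4 lay lower and 1 higher in WT Scl+, against WT Scl-, at an unadjusted p under 0.05 (median -0.67). Over all genes, 3.44% were lower and 5.19% higher at that p. Isl1, which marks second heart field progenitors, differed by -1.81 (SE 0.35) and Tbx2 by -1.53 (SE 0.41), with 1 WT Scl+ value of Tbx2 under the limit. Mef2c, which acts in heart and also in endothelium, differed by 1.84 (SE 0.74) in the other direction, or 1.35 with its dim value on WT Scl- replicate 1 at the limit. In SclKO against WT Scl+, 5 were higher and 0 lower (median 0.68), where 6.61% of all genes were higher. Tbx5 is among the 5, and the median is its measured difference (0.68), which was 0.27 with dim values at the limit. It exceeded the limit on 2 SclKO arrays, 1 WT Scl- array and 0 WT Scl+ arrays. Tbx5 thus passed the filter only through SclKO, where it was high, so its direction is no support. Isl1 (1.7, SE 0.35), Mesp1 of the earliest cardiac mesoderm (1.45, SE 0.23) and Tbx2 (1.42, SE 0.41) led the 5. Against WT Scl-, 0 of 11 reached an unadjusted p under 0.05, with limma.

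Of 8 tested cardiac targets of Gata4, 2 were lower in WT Scl+ than in WT Scl- at an unadjusted p under 0.05, the atrial myosin light chains Myl7 (-1.43, SE 0.39) and Myl4 (-0.97, SE 0.27), where 3.44% of all genes were lower and 5.19% higher. Myl7 was higher in SclKO than in WT Scl+ (1.18, SE 0.39), and Myl4 lower in SclKO than in WT Scl- (-0.95, SE 0.27). Of 13 tested endoderm genes downstream of Gata4 and Gata6, 2 lay higher and 1 lower in WT Scl+, against WT Scl-: Sox7 (2.13, SE 0.83), Sox17 (1.51, SE 0.48) and Pdgfra (-1.13, SE 0.34). Sox7 and Sox17 also act in endothelium, and Pdgfra, a growth factor receptor, also marks mesoderm. In SclKO against WT Scl+, 2 were higher and 4 lower, where 6.61% and 6.24% of all genes were, with Sox7 at -3.62 (SE 0.83; -3.28 with SclKO replicate 1 at the limit), Pdgfra at 1.61 (SE 0.34) and Sox17 at -1.16 (SE 0.48). Against WT Scl-, where 2.75% of all genes were higher and 2.07% lower, Foxa2, an endoderm factor, was higher in SclKO (0.74, SE 0.24) and Sparc, a matrix protein gene, lower (-0.57, SE 0.19).

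The NuRD subunits that Friend of GATA proteins recruit were near level. All 13 were tested, and their medians were -0.04, 0.07 and 0.06 log units in the 3 comparisons. Mbd2, which binds methylated DNA, was the 1 subunit at an unadjusted p under 0.05 (0.74 log units, SE 0.22, WT Scl+ against WT Scl-). Over all genes 5.19% were higher at that p, so 1 of 13 is near that share. Of 8 other genes with a GATA-type zinc finger, 0 reached that p with limma in any comparison, and the medians were -0.0012, 0.0014 and -0.016 log units. Of these 8 genes, 5 are also in the NuRD list, and the blood partners and blood targets share Gfi1b and Klf1.

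**Figure D4:**
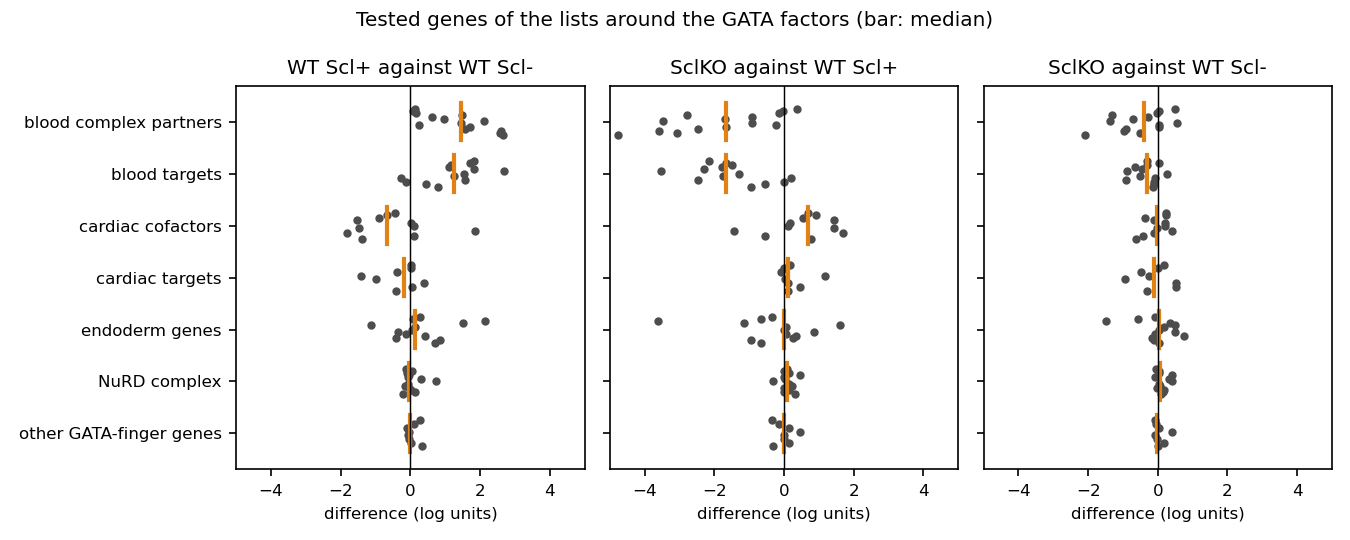
Differences in log units of the tested genes of 7 lists, 1 panel for each comparison; each point is a gene and the orange bar is the list's median. Partners and targets of blood GATA have medians to the right of 0 between WT Scl+ and WT Scl- (1.46 and 1.26) and to the left between SclKO and WT Scl+ (-1.67 and -1.66), while the medians of the NuRD subunits and other GATA-finger genes lie near 0.

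The genes whose levels ran most like each member over the 6 arrays were taken from 2323 genes with a range of at least 1 log unit (2324 for Zfpm1), as a description with no test. All of these values share the same 6 arrays in 3 groups. For Gata1 they were Gulp1 (Pearson r = 0.990), Pigl (0.978) and Gypc (0.973), and 65 genes exceeded r = 0.9. For Gata2, at 1428816_a_at, they were Fzd10os and Npl (0.996 each) and Ets2 (0.994), with 203 genes over 0.9. For Gata3 they were F3 (0.973), Cdkn1c (0.969) and Robo3 (0.962), with 20 genes over 0.9.

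For Gata4, at 1418863_at, the genes most alike were Pdgfra (0.995), Efna3 (0.994) and Mesp2 (0.992), and 241 genes exceeded 0.9. For Gata6, at 1425464_at, they were 4931428F04Rik (0.994), Chst11 (0.989) and Dll3 (0.986), with 54 genes over 0.9. For Zfpm1, at 1451046_at, they were Spink1 (0.923), Cdh1 (0.916) and Nefm (0.913), and 4 genes exceeded 0.9. Among the members, the Gata2 probe sets ran against those of Gata4 (r between -0.99 and -0.95 over the 6 arrays), and the Gata2 and Gata1 probe sets ran together (0.82 and 0.86).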

How the data were processed

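The authors deposited 1 table with a value for each of 45101 probe sets on 6 arrays; per the submitters' processing notes, RMA, affy and limma were used, with no version named. The deposited values (a score without a stated unit) ran from 3.256 to 2822995 and were not on a log scale. The natural log was taken. Array medians lay between 5.2 and 5.25. No column was left unused (0).

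An annotation of the platform named 1 gene for 34958 probe sets, more than 1 for 932 and no gene for 9211. Entrez identifiers served to update 34754 of the names. Control probe sets (64) were left out of the tests. limma 3.58.1 in R 4.3.3 fitted 1 mean per group (residual degrees of freedom 3, prior 3.13), with eBayes, two-sided tests and Benjamini-Hochberg adjustment. The fit was tested on simulated data. Precision is limited by the number of arrays.

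Members, lists and markers were chosen with earlier results of these data known. Named from each list were the 3 genes with the largest difference per comparison among those with an unadjusted p under 0.05 and no overlap of the arrays; from likeness, the 3 highest r per member. Alternatives were a replicate block, other filters, 1 probe set per gene, centring, fewer groups, dim values at the limit, array weights, another eBayes and leaving out each array. Leaving out Gata3 or Gata1 from the blood mean, and the counts of members under each alternative, were added after seeing the data.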

Additional observations from a re-analysis of the deposited data

How the results depend on the processing

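Differences of single members kept their direction under the alternatives except as follows, and the cause was not tested. When single arrays were left out, between WT Scl+ and WT Scl- the range was -0.618 to 0.325 log units for Gata6 at 1425463_at, -0.252 to 0.0971 for Gata3 and -0.0149 to 0.265 for Zfpm1 at 1423603_at. Between SclKO and WT Scl+ it was -0.0088 to 0.934 for Gata6 at 1425463_at, -0.0528 to 0.227 for Zfpm1 at 1423603_at and -0.124 to 0.0753 for Zfpm1 at 1451046_at. Between SclKO and WT Scl- it was -1.37 to 0.456 for Gata2 at 1428816_a_at. Of 438 recomputed member differences, 8 changed sign, but many of the 438 could not change. The replicate block, other filters, 1 probe set per gene, fewer groups, array weights and another eBayes alter only the spread or the set tested. Leaving out an array of the group not compared also keeps the difference as it was. Gata2 at 1428816_a_at passed anew between SclKO and WT Scl+ with only the 2 groups compared (limma adjusted p = 0.0496).

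The number of probe sets that passed over the whole array was 0 between WT Scl+ and WT Scl-, and 0 to 46 when single arrays were left out. Between SclKO and WT Scl+ it was 3, but 6 with the replicate block, 1 with 1 probe set per gene, 27 with only the 2 groups compared, 32 with trend and robust eBayes, and 0 to 1172 when single arrays were left out, the highest without WT Scl+ replicate 1. Between SclKO and WT Scl- it was 3, but 6 with the 60th percentile filter, 1 with 1 probe set per gene, 6 with dim values set to the limit, 7 with array weights, 11 with trend and robust eBayes, and 0 to 3 when single arrays were left out. The count of members at an unadjusted p under 0.05, an alternative chosen after seeing the data, ranged when arrays were left out over 3 to 6 (6 with all arrays), 7 to 8 (7) and 1 to 4 (2) in the 3 comparisons, and the last was 4 with the replicate block. Same-numbered arrays of different groups deviated together (correlation 0.205 to 0.238 across probe sets), but the labels do not say what the numbers mark, and with 2 numbers they do not pair the samples; no member passed with the block.

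The shift of blood against cardiac and endodermal GATA between SclKO and WT Scl+ (-2.3) was -2.21 with dim values at the limit, -2.15 over all tested probe sets, -3.44 without Gata3 and -1.67 without Gata1. Without Gata3 it was 2.42 between WT Scl+ and WT Scl- and -1.03 between SclKO and WT Scl-. Values under the limit for dim values have only an upper bound. Among these are Gata1, Lyl1, Gfi1b and Spi1 in SclKO, Tbx5 in WT Scl+, and Hba-x in SclKO and WT Scl-. The untested probe sets of Gata5, Gata6 and Zfpm2 are such values too. So are values on single arrays of a group for Cbfa2t3, Sox7, Mef2c, Tbx2, Klf1, Spi1 and Tbx5. Their printed levels and measured differences are not exact.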
